A study of Homo sapiens with 4 samples.

Results

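The genes described here are 33 genes of sterol and fatty acid synthesis, their SREBP regulators and their cholesterol efflux counterparts, chosen by name among the 20372 genes of the count table. They comprise 17 sterol synthesis enzymes, 6 genes of SREBP regulation and sterol transport, 7 lipogenic genes, and 3 genes of cholesterol efflux and the LXR response. All 33 are in the table, and 32 had enough counts to be tested. The exception was ABCG1, a cholesterol exporter, which had 1 count in a single library of each time point and 0 in the other.

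The study treated TPC1 cells, an established human papillary thyroid carcinoma line that carries the CCDC6-RET fusion, with the selective RET inhibitor BLU6864, to find which transcripts change as the cells adapt to the drug. The groups compared were cells exposed to BLU6864 for 6 h and cells exposed to it for 24 h, with 2 libraries at each time point and the same culture medium with serum for all 4. The drug dose is 100 µM in the sample labels and 100 nM in the methods. The labels mark both 24 h libraries as a re-analysis, so any difference in handling and the time point cannot be told apart. The vehicle and BGJ398 libraries were not analysed here, so drug exposure and hours in culture cannot be told apart. The labels do not say whether the 2 libraries of a time point came from separate cultures, so the P values measure the spread between these libraries, which may be technical.

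Total counts ranged from 23917056 to 27457040 per library. Of the thyroid markers, PAX8 had between 19961 and 22045 normalized counts in each library, whereas TSHR and NKX2-1 had 0 counts in all 4 libraries, and a count of 0 allows up to 3. TG fell, with 201 and 235 normalized counts at 6 h and 97.6 and 108 at 24 h (log2 fold change -1.09), and FOXE1 rose by 0.84. Of the 6 epithelial markers, KRT7 and KRT18 rose by 0.84 and 0.37, KRT19 fell by 1.59 on the log2 scale, KRT8 did not pass, and EPCAM and CDH1 had at most 11 and 8 counts in any library, so that the summed level was 3115 and 2982 normalized counts at 6 h and 3352 and 3333 at 24 h. The adipocyte markers ADIPOQ, FABP4 and LEP had at most 1 count in any library, PLIN1 had 9 to 36 and was higher at 24 h, and the summed level of these 4 was 8.63 and 19.4 normalized counts at 6 h and 31.1 and 35.9 at 24 h. Each of the 6 white blood cell markers had at most 5 counts in any library. All 10 proliferation genes were lower at 24 h, the median log2 fold change being -4.26, and their summed normalized counts were 53857 and 53077 at 6 h and 4316 and 4285 at 24 h. Their part in the changes of the lipid genes was not tested. Counts are relative to each library, so fewer cells of a kind and less RNA per cell cannot be told apart.

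Cholesterol is built from acetyl-CoA through mevalonate, isoprenoid diphosphates, squalene and lanosterol, and fatty acids are built from the same acetyl-CoA. Most enzymes of both routes are transcribed under the SREBP factors, encoded by SREBF1 and SREBF2. SCAP carries the SREBP precursors out of the endoplasmic reticulum when sterols are scarce, and the INSIG proteins hold SCAP back when sterols are plentiful. SREBP-2 favours the sterol genes, whereas SREBP-1c favours the lipogenic genes and is itself a target of the liver X receptors (LXR), which also raise the genes of cholesterol efflux when oxysterols accumulate. Growth factor signaling through PI3K and mTOR is known to promote SREBP activity in many cell types.

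Most sterol synthesis enzymes were lower and most lipogenic genes higher after 24 h of BLU6864 than after 6 h. Of the 17 sterol enzymes, 12 were lower at 24 h and 2 higher (adjusted P below 0.05), and their log2 fold changes had a median of -0.40 and ranged from -1.64 to 0.33. Of the 7 lipogenic genes, 4 were higher and 1 was lower, with a median of 0.42. Over all 12876 genes tested, 32.6% were lower and 33.0% were higher by the same rule, and the median log2 fold change was 0.0029. The cutoffs of the study's methods, applied here in both directions as a log2 fold change beyond 0.5 or -0.5 with a raw P below 0.01, were passed downward by 8 and upward by 0 of the sterol enzymes, against 17.7% and 17.4% of all genes tested. Of the lipogenic genes, 3 passed these cutoffs upward and 0 downward. For the 32 genes together, 16 were lower and 8 higher by adjusted P, and 8 passed in neither direction. Both 24 h libraries lay below both 6 h libraries for 16 of the 32 genes and above them for 12, compared with 40.8% and 41.0% of all genes tested, and the time points overlapped for the remaining 4. Fold changes are 24 h against 6 h, and adjusted P values come from the quasi-likelihood test of edgeR, corrected by Benjamini-Hochberg over all genes tested. A normalized count is a read count divided by its library's TMM-scaled size, itself taken relative to the average library.

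**Figure D1:**
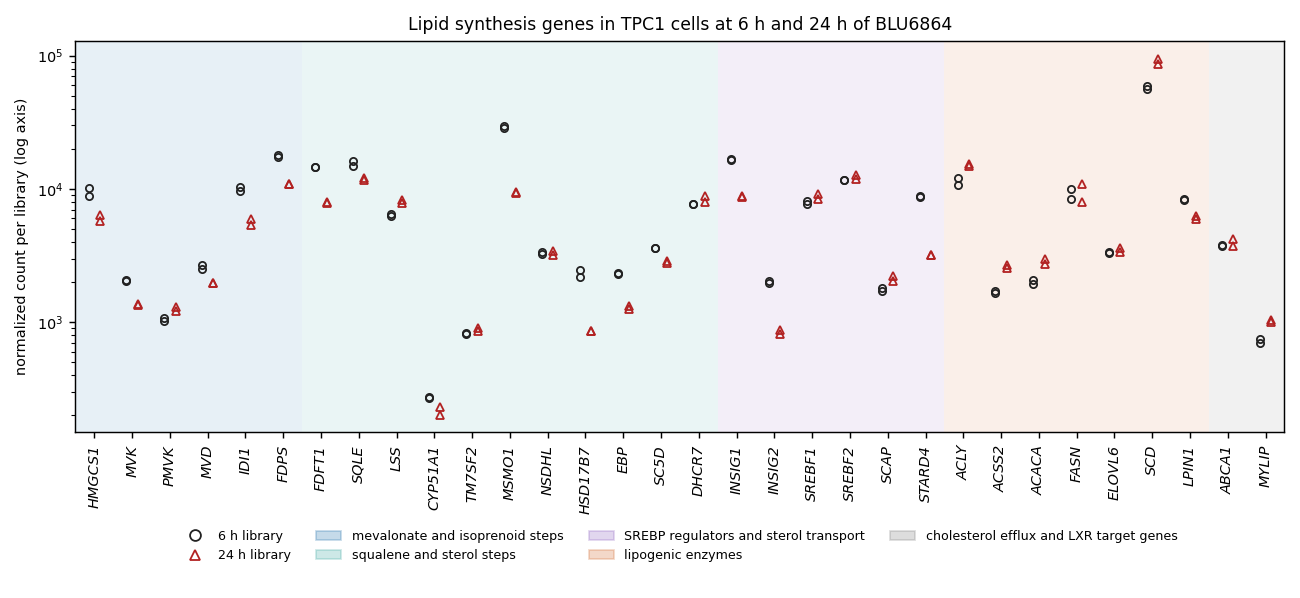
Normalized count on a log axis for each of the 32 genes tested, with 1 point per library, 2 libraries at 6 h and 2 at 24 h of BLU6864, and genes ordered by role. SCD has the highest count in every library, MSMO1 shows the widest gap between time points, and the FASN points of both time points overlap.

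**Figure D2:**
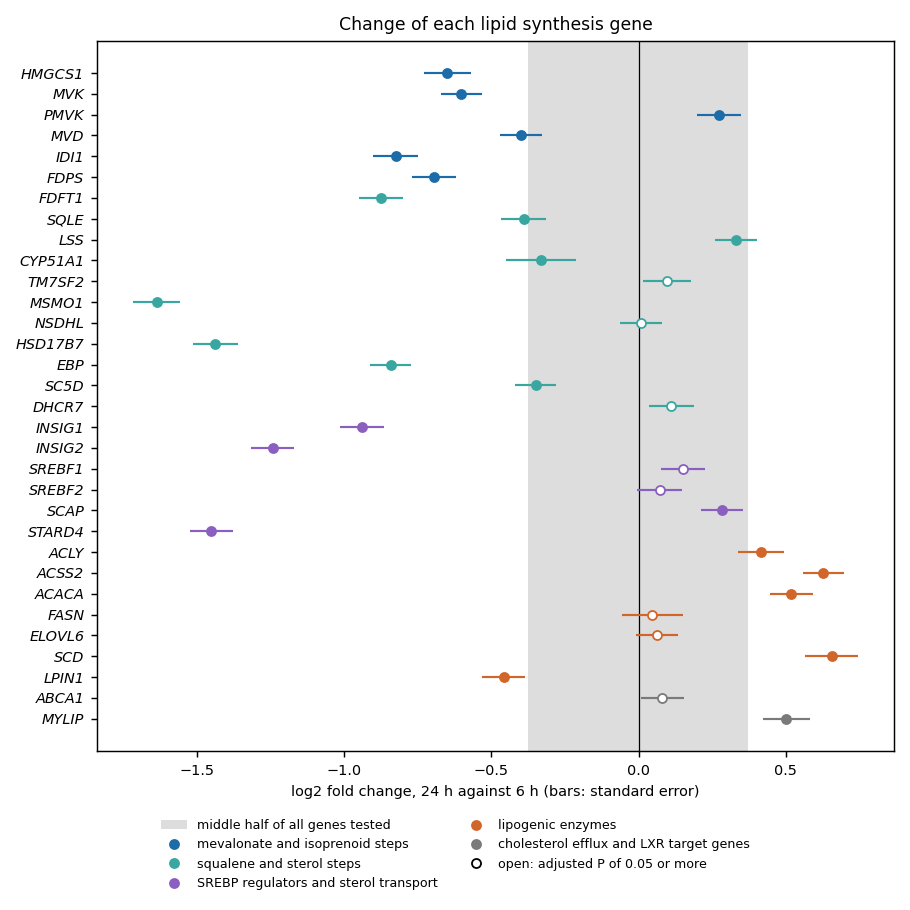
Log2 fold change at 24 h against 6 h for each gene, grouped by role, with bars for the standard error of edgeR's quasi-likelihood fit (2 libraries per time point). The falls reach -1.64 for MSMO1, whereas the largest rise is 0.66 for SCD.

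The genes that moved furthest did not share every promoter motif. Promoter windows for 29 of the 33 genes were in the set of RefSeq promoters used here (GRCh38.p14). They span 250 bases before to 50 bases after each start. The set held no window for FDFT1, SQLE, FASN and ABCG1, so the motif counts leave these genes out and say nothing about their promoters. The 250 bases before the start are shown for the 3 genes with the largest falls, for INSIG1, for SCD, the gene with the largest rise, and for SREBF2, in which the sterol regulatory element core was found. They are written in the direction of transcription, and the build is distinct from the one of the gene positions given with the counts. Capitals mark the CCAAT box (CCAAT, or ATTGG on the opposite strand), which binds NF-Y, a factor that works with SREBPs, and also the E-box CACGTG in INSIG1 and the sterol regulatory element core TCACCCCAC in SREBF2. MSMO1 lies at chr4:165327419-165327668 on the plus strand, STARD4 at chr5:111512536-111512785 on the minus strand, HSD17B7 at chr1:162790452-162790701 on the plus strand, INSIG1 at chr7:155297628-155297877 on the plus strand, SCD at chr10:100346983-100347232 on the plus strand, and SREBF2 at chr22:41832855-41833104 on the plus strand.
MSMO1: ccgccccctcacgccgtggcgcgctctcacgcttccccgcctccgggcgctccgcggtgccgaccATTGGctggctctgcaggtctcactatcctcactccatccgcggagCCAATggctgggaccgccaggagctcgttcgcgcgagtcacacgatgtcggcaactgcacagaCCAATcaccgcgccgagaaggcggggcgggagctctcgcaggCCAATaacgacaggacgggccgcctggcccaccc
STARD4: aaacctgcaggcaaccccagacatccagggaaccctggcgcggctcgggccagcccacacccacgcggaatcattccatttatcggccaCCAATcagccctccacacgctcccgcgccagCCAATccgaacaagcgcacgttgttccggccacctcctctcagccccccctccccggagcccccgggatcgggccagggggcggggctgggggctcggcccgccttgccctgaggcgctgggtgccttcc
HSD17B7: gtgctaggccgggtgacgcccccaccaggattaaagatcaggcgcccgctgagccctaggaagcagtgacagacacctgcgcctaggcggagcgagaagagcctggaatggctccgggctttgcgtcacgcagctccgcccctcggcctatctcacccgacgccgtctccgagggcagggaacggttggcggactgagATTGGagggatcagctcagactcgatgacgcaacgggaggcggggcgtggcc
INSIG1: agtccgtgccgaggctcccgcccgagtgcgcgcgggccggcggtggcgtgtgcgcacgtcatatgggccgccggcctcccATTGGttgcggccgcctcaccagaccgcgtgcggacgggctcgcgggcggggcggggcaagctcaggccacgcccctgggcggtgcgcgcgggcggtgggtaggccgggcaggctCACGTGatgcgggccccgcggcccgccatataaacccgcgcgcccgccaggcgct
SCD: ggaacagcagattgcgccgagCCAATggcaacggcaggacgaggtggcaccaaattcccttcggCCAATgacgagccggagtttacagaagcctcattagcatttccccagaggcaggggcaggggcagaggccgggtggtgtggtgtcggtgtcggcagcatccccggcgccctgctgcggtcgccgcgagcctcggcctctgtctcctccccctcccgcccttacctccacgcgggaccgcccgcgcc
SREBF2: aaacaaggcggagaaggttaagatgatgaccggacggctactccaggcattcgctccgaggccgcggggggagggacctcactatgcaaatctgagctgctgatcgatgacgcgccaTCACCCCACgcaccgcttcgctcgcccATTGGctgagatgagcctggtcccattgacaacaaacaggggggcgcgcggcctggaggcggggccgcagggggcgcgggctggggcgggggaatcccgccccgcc

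The CCAAT box was frequent in these windows on both sides of the comparison. Searched on both strands, it occurred at least 1 time in the windows of 21 of the 29 genes, compared with 39.7% of 27305 genes in the RefSeq table, and at least 2 times in 15 of 29, compared with 12.9%. It was found in 13 of 15 sterol enzymes and in 4 of 6 lipogenic genes with a window. MSMO1 had 4 copies, whose first printed bases lie 185, 139, 76 and 34 bases before the start. SCD, which changed in the opposite direction, had copies 229 and 186 bases before the start, and NSDHL, whose log2 fold change was 0.01, had 5. The core TCACNCCAC was found in 1 of 29 genes, SREBF2, 133 bases before the start, against 1.39% of all genes. The E-box was found in 5 of 29, namely INSIG1, LSS, SC5D, SCAP and ABCA1, against 8.77% of all genes. INSIG2 fell without any of these letters in its windows, and a match or its absence is a description of these windows alone.

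Among the 6 genes of the mevalonate and isoprenoid steps, 5 fell and 1 rose, beside 32.6% lower and 33.0% higher over all genes tested. HMGCS1, the cytosolic synthase that makes HMG-CoA, had 10085 and 8844 normalized counts at 6 h and 6366 and 5700 at 24 h, and its log2 fold change was -0.65 (SE 0.0801, adjusted P = 7.60e-08). IDI1, which isomerizes isopentenyl diphosphate, had 9569 and 10412 at 6 h and 5902 and 5373 at 24 h, the largest fall of this segment at -0.83 (adjusted P = 4.34e-10). FDPS makes farnesyl diphosphate, from which the sterol, dolichol and protein prenylation branches part. Its normalized counts were 17872 and 17486 at 6 h and 10901 and 10940 at 24 h, a change of -0.69 (adjusted P = 8.74e-09). The 6 h libraries were above the 24 h libraries for each of these 3 genes, and the gap between the time points exceeded the difference between the libraries of a time point. FDPS has near-identical pseudogene copies, so its count is uncertain.

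The kinases and the decarboxylase between HMG-CoA reduction and isopentenyl diphosphate did not move together. Mevalonate kinase, MVK, had 2046 and 2074 normalized counts at 6 h and 1360 and 1353 at 24 h (log2 fold change -0.60, adjusted P = 2.53e-08). PMVK, the next kinase, was the only mevalonate gene to rise, from 1074 and 1010 to 1298 and 1219 (0.27, adjusted P = 0.00265). MVD, which decarboxylates mevalonate diphosphate, fell from 2701 and 2488 to 1959 and 1970 (-0.40, adjusted P = 2.08e-05). In each of these 3 genes both libraries of one time point lay on the same side of both libraries of the other. The MVK locus shares 620 bases with MMAB, a gene of cobalamin metabolism whose log2 fold change was -0.59, and the strand setting of the counting is not given in the sources used here, so reads in that stretch cannot be assigned with certainty.

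Of the 11 enzymes from squalene to cholesterol, 7 fell, 1 rose and 3 passed in neither direction. The shares were 63.6% lower and 9.09% higher, beside 32.6% and 33.0% over all genes tested. MSMO1, the C-4 methylsterol oxidase (ENSG00000052802, hg19 chr4:166248775-166264312), had 28538 and 29563 normalized counts at 6 h and 9246 and 9430 at 24 h. This was the largest change of any of the 32 genes, 3.11-fold lower at 24 h (log2 fold change -1.64, SE 0.0797, adjusted P = 6.17e-16), and 4.47% of the genes tested had a lower value. HSD17B7, the 3-ketosteroid reductase that acts in the same C-4 demethylation complex (hg19 chr1:162760492-162782607), had 2174 and 2470 at 6 h and 858 and 857 at 24 h, 2.71-fold lower (-1.44, adjusted P = 4.63e-15). NSDHL, the dehydrogenase of that complex, had 3234 and 3333 at 6 h and 3396 and 3211 at 24 h. Its 4 libraries overlapped and its log2 fold change was 0.01 (SE 0.0706, adjusted P = 0.919). One of the 3 enzymes of C-4 demethylation therefore kept its level within the spread of the libraries while the other two fell by more than any other sterol enzyme. HSD17B7 also has near-identical pseudogene copies, which makes its count uncertain.

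The enzymes from farnesyl diphosphate to lanosterol differed in direction too. FDFT1, squalene synthase, had 14568 and 14518 normalized counts at 6 h and 7869 and 7979 at 24 h (log2 fold change -0.88, adjusted P = 7.59e-11). SQLE, the squalene epoxidase and a controlled step of the pathway, had 16144 and 14964 at 6 h and 12009 and 11729 at 24 h, a smaller fall (-0.39, adjusted P = 7.93e-05). LSS, which closes squalene epoxide to lanosterol, was the only enzyme of the 11 to rise, from 6254 and 6498 to 7839 and 8201 (0.33, adjusted P = 0.000272). Squalene synthase and lanosterol synthase thus moved in opposite directions in libraries that did not overlap.

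The later steps ranged from a fall by a factor of 1.79 to no call. EBP, the sterol isomerase, had 2319 and 2291 normalized counts at 6 h and 1311 and 1259 at 24 h (log2 fold change -0.84, adjusted P = 5.22e-11). SC5D, the C-5 desaturase, fell from 3617 and 3614 to 2786 and 2887 (-0.35, adjusted P = 9.21e-05). DHCR7, the reductase of the last step from 7-dehydrocholesterol, had 7749 and 7714 at 6 h and 7940 and 8768 at 24 h (0.11, SE 0.0748, adjusted P = 0.193). The DHCR7 libraries did not overlap, but the gap was smaller than the spread of the 24 h libraries.

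CYP51A1, the lanosterol demethylase, had the lowest level per transcript length of the sterol enzymes, and TM7SF2 is a C-14 sterol reductase that acts right after it. CYP51A1 had 272 and 271 normalized counts at 6 h and 202 and 229 at 24 h, and its log2 fold change of -0.33 (SE 0.118) gave an adjusted P of 0.0161. This call was lost with DESeq2 (adjusted P = 0.0896) and when 3 of the 4 libraries were left out in turn, namely the first 24 h library (0.136), the first 6 h library (0.0619) and the second 6 h library (0.0615). The CYP51A1 locus (hg19 chr7:91741465-91772266) shares 30794 bases with LRRD1, nearly its whole length. LRRD1 had about 1 normalized count. How reads in overlapping genes were counted is not given in the sources used here, so the level and the change of CYP51A1 are uncertain. TM7SF2 had 832 and 808 at 6 h and 851 and 902 at 24 h (0.10, adjusted P = 0.298). LBR, another C-14 sterol reductase, belongs to one of the further lists described below. It fell from 5117 and 4795 to 4133 and 4136 (-0.26, adjusted P = 0.00223).

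Together the 17 sterol enzymes held 129049 and 128357 normalized counts at 6 h and 82093 and 82006 at 24 h. MSMO1 alone accounted for 22.1% and 23.0% of this sum at 6 h and for 11.3% and 11.5% at 24 h. Apart from MSMO1, 11 further enzymes of the 17 fell.

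The 6 genes that regulate SREBP or carry sterols split into 3 that fell, 1 that rose and 2 that passed in neither direction, beside 32.6% lower and 33.0% higher over all genes tested. INSIG1, a sterol-dependent SREBP target and the main brake on SCAP (hg19 chr7:155089486-155101945), had 16803 and 16567 normalized counts at 6 h and 8777 and 8620 at 24 h, 1.92-fold lower (log2 fold change -0.94, SE 0.0755, adjusted P = 2.36e-11). INSIG2, its paralog, which does not depend on SREBP in the same way, had 1954 and 2040 at 6 h and 877 and 811 at 24 h, 2.37-fold lower (-1.24, SE 0.0741, adjusted P = 4.67e-14). Both paralogs therefore fell, and the ratio of INSIG1 to INSIG2 was 8.60 and 8.12 at 6 h and 10.0 and 10.6 at 24 h. STARD4, a soluble carrier of cholesterol between membranes (hg19 chr5:110831731-110848288), had 8692 and 8826 at 6 h and 3196 and 3210 at 24 h. It was 2.73-fold lower (-1.45, SE 0.0723, adjusted P = 1.02e-15), a fall that did not differ from that of HSD17B7 beyond the standard errors.

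The genes for the SREBP factors themselves did not pass the test. SREBF2 had 11679 and 11748 normalized counts at 6 h and 11840 and 12779 at 24 h (log2 fold change 0.07, SE 0.0759, adjusted P = 0.418). SREBF1 had 8061 and 7732 at 6 h and 8368 and 9161 at 24 h (0.15, SE 0.0750, adjusted P = 0.0802). SCAP rose from 1702 and 1788 to 2031 and 2218 (0.28, adjusted P = 0.00121). SREBF1 passed the threshold with upper quartile scaling (adjusted P = 0.0361). Its locus shares 1055 bases with RAI1, whose log2 fold change was 1.03, and counts of the SREBP transcripts do not measure the cleaved, active proteins.

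Among the lipogenic genes, the enzymes that supply acetyl-CoA, the carboxylase ACACA and the desaturase SCD rose. SCD, the stearoyl-CoA desaturase that makes oleate (ENSG00000099194, hg19 chr10:102106881-102124591), had 59430 and 56338 normalized counts at 6 h and 87264 and 95181 at 24 h, 1.58-fold higher (log2 fold change 0.66, SE 0.0897, adjusted P = 4.31e-07). It took 0.230% and 0.219% of all counts at 6 h and 0.331% and 0.356% at 24 h. ACSS2, which makes acetyl-CoA from acetate, rose from 1711 and 1666 to 2543 and 2677 (0.63, adjusted P = 1.41e-08). ACLY, which cuts citrate to release acetyl-CoA in the cytosol, rose from 12018 and 10645 to 15318 and 14908 (0.42, adjusted P = 5.09e-05). ACACA, an acetyl-CoA carboxylase that commits carbon to fatty acids, had 1927 and 2070 at 6 h and 2730 and 2996 at 24 h (0.52, adjusted P = 7.46e-07). For each of these 4 genes the lowest 24 h library was above the highest 6 h library. The ACSS2 locus shares 715 bases with GGT7, whose log2 fold change was 0.43, and the ACACA locus shares 16735 bases with C17orf78, which had at most 2 counts in any library. ACACB, the other acetyl-CoA carboxylase, belongs to one of the further lists described below. It fell from 459 and 508 to 355 and 395 (-0.37, adjusted P = 0.00215).

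The synthase and the elongase between carboxylation and desaturation did not pass the test. FASN, the fatty acid synthase, had 8376 and 9894 normalized counts at 6 h and 7922 and 10954 at 24 h. The lowest and the highest of these values were both at 24 h, and the log2 fold change was 0.05 (SE 0.103, adjusted P = 0.705). It was 0.26 (adjusted P = 0.0386) without the first 24 h library, -0.20 without the second and -0.068 without the first 6 h library, so single libraries set its direction. ELOVL6, which lengthens palmitate, had 3382 and 3275 at 6 h and 3589 and 3358 at 24 h (0.06, SE 0.0711, adjusted P = 0.459), and these libraries overlapped as well. LPIN1, a phosphatidate phosphatase of glycerolipid synthesis and a transcriptional coregulator, fell from 8454 and 8269 to 6254 and 5916 (-0.46, adjusted P = 4.22e-06), in contrast to the 4 genes that rose.

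The summed level of the 7 lipogenic genes was 95298 and 92159 normalized counts at 6 h and 125619 and 135991 at 24 h. SCD made up 62.4% and 61.1% of it at 6 h and 69.5% and 70.0% at 24 h. Without SCD the sum was 35868 and 35821 at 6 h and 38355 and 40809 at 24 h, a much narrower gap.

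Of the genes of efflux and the LXR response, MYLIP rose and ABCA1 did not pass. MYLIP, an LXR target that encodes a ubiquitin ligase for lipoprotein receptors, had 745 and 698 normalized counts at 6 h and 1008 and 1034 at 24 h (log2 fold change 0.50, SE 0.0804, adjusted P = 4.89e-06). ABCA1, which exports cholesterol to apolipoproteins and is a widely used LXR target, had 3778 and 3730 at 6 h and 3756 and 4184 at 24 h (0.08, SE 0.0730, adjusted P = 0.339), with overlapping libraries. With ABCG1 at the limit of detection, this group rests on 2 genes.

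The order of the genes by level changed between the time points. Levels of different genes were compared as normalized counts per kilobase of the longest protein-coding transcript, which was found for 32 of the 33 genes, ACACA being the exception. At 6 h the most abundant was MSMO1, with 13045 normalized counts per kilobase, followed by FDPS with 11962 and SCD with 11036. At 24 h SCD led with 17392, followed by FDPS with 7389 and MSMO1 with 4193. FDFT1, INSIG1 and SQLE came next at 6 h, with 5907, 5738 and 5251 normalized counts per kilobase. STARD4 moved from rank 12 to rank 21 (1891 to 692 per kilobase) and HSD17B7 from rank 16 to rank 22 (1520 to 561 per kilobase). CYP51A1, with 86.0 and 68.3 per kilobase, was the lowest at both times of the 31 tested genes with a transcript length. This level is uncertain, since LRRD1 overlaps nearly the whole CYP51A1 locus. The levels of FDPS and HSD17B7 are uncertain too, given their pseudogene copies. Which transcript of each gene the cells expressed was not examined, so the order of close values depends on the length chosen.

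**Figure D3:**
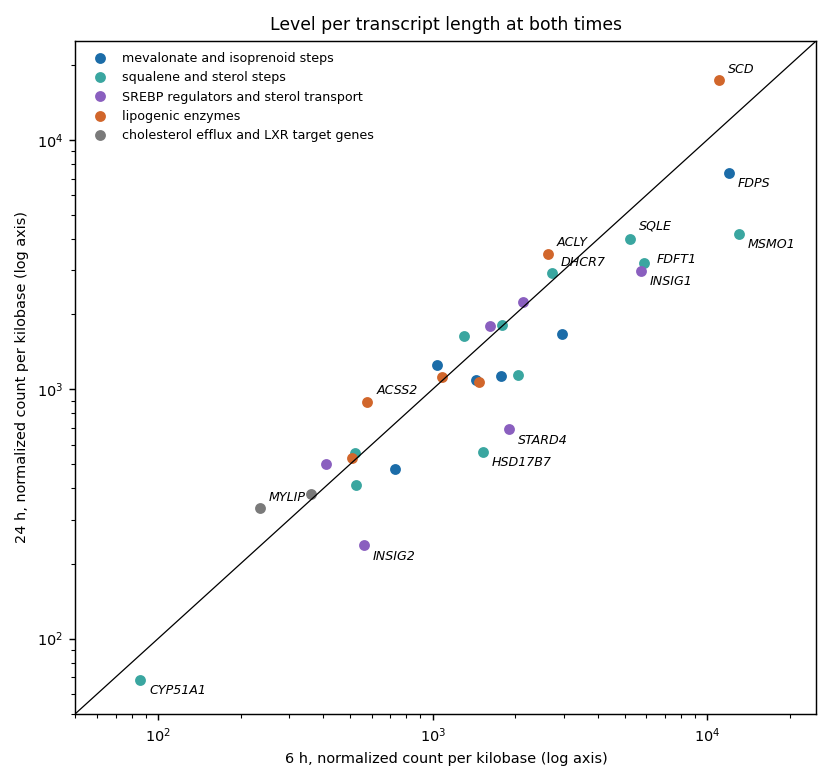
Mean normalized count per kilobase of transcript at 6 h (horizontal) and 24 h (vertical), both on log axes, for the 31 tested genes with a transcript length, as means of 2 libraries. Points under the diagonal are lower at 24 h, and MSMO1, STARD4, HSD17B7 and INSIG2 lie furthest under it, whereas SCD lies above it at the top.

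Genes of the same pathways outside the 33 were examined in 6 further lists with 98 genes, of which 88 were tested. Of these, 22 were higher and 29 lower at 24 h by adjusted P, or 25% and 33.0%, beside 33.0% and 32.6% of all genes tested. Among genes that assist sterol synthesis or process SREBPs, 8 of 14 fell and 1 rose, with a median log2 fold change of -0.29. ACAT2, the cytosolic thiolase that feeds HMGCS1, had 6733 and 6920 normalized counts at 6 h and 3941 and 4025 at 24 h (log2 fold change -0.78, adjusted P = 3.01e-10). UFD1, a cofactor for extraction of proteins from the endoplasmic reticulum, changed by -0.69. The isoprenoid branch, which leads from farnesyl diphosphate to ubiquinone, dolichol and prenylated proteins, had 3 genes that fell and 1 that rose of 12. Its named members were COQ2 of ubiquinone synthesis at -0.61 and RABGGTB of Rab prenylation at -0.53, both past the cutoffs, although RABGGTB was at -0.47 without the second 6 h library.

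Fatty acid elongation, desaturation and activation included 8 genes that rose and 8 that fell of 24, or 33.3% each way, close to the background shares of 33.0% and 32.6%. The acyl-CoA synthetases, which activate fatty acids for use, moved in opposite directions. ACSL4, which prefers arachidonate, had 9828 and 8599 normalized counts at 6 h and 24986 and 23935 at 24 h (log2 fold change 1.41, adjusted P = 3.68e-14), and ACSL1 rose by 1.41 as well, from 2175 and 1971 to 5560 and 5479. ACSL3, which acts at the endoplasmic reticulum and lipid droplets, fell from 13416 and 11787 to 6198 and 6206 (-1.02, adjusted P = 8.91e-12), and the dehydratase HACD2 changed by -0.87. In glycerolipid synthesis 6 of 16 genes rose and 4 fell, or 37.5% and 25%, which is near those shares, and the named genes were DGAT2 of triglyceride synthesis at -0.78 and the choline kinase CHKA at 0.67.

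Genes of sterol uptake, transport and esterification included 4 that rose and 5 that fell of 14, or 28.6% and 35.7%, again near the 33.0% and 32.6% of all genes tested. NPC1 and NPC2, which release cholesterol from lysosomes, rose by 0.84 and 0.82 on the log2 scale, NPC1 from 10242 and 9609 normalized counts to 16824 and 18588. LRP8, a lipoprotein receptor, changed by -1.33 and GRAMD1C, a sterol transporter of membrane contacts, by -1.41, the latter from 1584 and 1541 to 603 and 572. Of 8 tested genes of LXR receptors and efflux, 2 rose and 1 fell, and the named ones were the receptor NR1H3 at 0.64 and SMPDL3A at -0.82. The fall of STARD4 was accompanied by a fall of GRAMD1C and a rise of NPC1 and NPC2, all 4 in libraries that did not overlap. Of all genes tested, 41.0% were separated upward and 40.8% downward in this way. Other genes of the uptake and transport list moved either way, LIPA by -0.64 and GRAMD1A by 0.23.

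**Figure D4:**
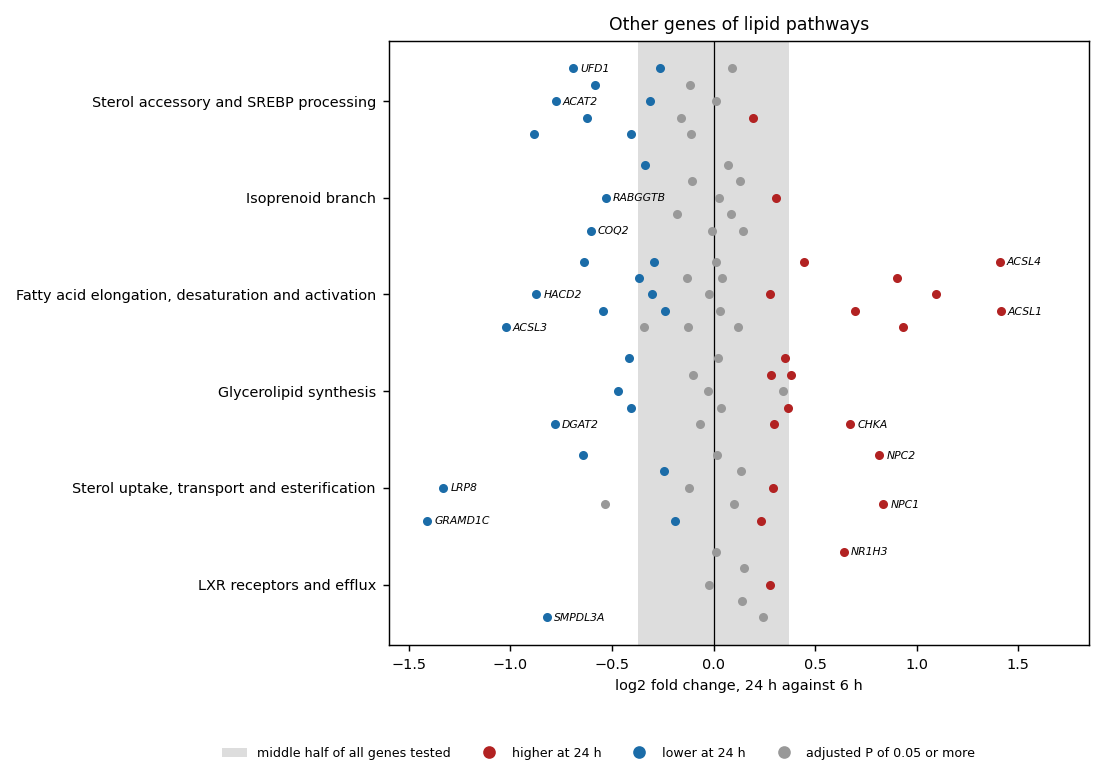
Log2 fold change at 24 h against 6 h for the 88 tested genes of 6 further lipid lists, with colour for the direction of calls at an adjusted P under 0.05 and grey for the rest, and the named genes labelled. The height within a row has no meaning, and the shaded band spans the interquartile range of all genes tested, from -0.37 to 0.37. All tested genes of the sterol accessory row lie in the band or to its left.

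The calls on the sterol and fatty acid genes rested on small spreads. Of the 24 genes called, 23 kept their call and direction in each of the 10 alternative fits, and CYP51A1 was the exception. The largest adjusted P of these 23 in the main edgeR fit was 0.00265, for PMVK. With DESeq2 the adjusted P of PMVK was 0.0159, and its log2 fold change ranged from 0.23 to 0.32 with a library left out. Of the 33 genes, 8 overlap another gene in the table and 6 overlap another tested gene, and leaving these 8 aside left 5 genes higher of the 8 reported.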

How the data were processed

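The authors aligned reads with STAR (version 2.3 in their processing notes, v2.7.7 in the methods) to hg19 and deposited raw counts of reads per gene for 20372 genes. They also deposited a normalized signal, the count divided by a DESeq2 size factor per library, and the log2 fold changes and P values of their comparison, which were not used. Library layout is 50 bp single-end per the labels and paired-end for 100 cycles in the methods. Every column of sample values had a known sample (0 left out). The counting program is not given in the sources used here.

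The raw counts of all 4 libraries were compared with edgeR 4.0.16 (R 4.3.3), using TMM scaling, filterByExpr (12876 genes, 99.97% of counts) and the quasi-likelihood test with time as the single factor. The 33 genes, the further lists, the markers and the tests were chosen with earlier results of these data known. The standard error is the absolute log2 fold change over the square root of F. The biological coefficient of variation was 0.0521, and libraries within a time point differed beyond sampling noise (chi-square per degree of freedom 7.65 at 24 h and 10.0 at 6 h). The procedure was tested on simulated data in which far fewer genes changed than were called here. That test therefore does not show how the scaling and the calls behave when so many genes change. All members were named. From each further list, the 2 largest rises and 2 largest falls past the cutoffs with a mean normalized count of at least 100 were named. In the further lists 5 genes were found by an older symbol.

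Gene positions are those of the table and are taken as hg19, the build named in the processing notes. Only 3.94% of 19457 genes start within 1000 bp of their position in GENCODE v44, which uses GRCh38. That comparison shows that the positions are not those of GRCh38, but not which build they follow. Transcript lengths come from GENCODE v44, promoter windows from RefSeq (GRCh38.p14). Alternatives were DESeq2 1.42.0, upper quartile scaling, library size alone, a minimum of 10 counts in every library or no filter, a replicate block, a stricter adjusted P of 0.01, and the omission of each library in turn. The removal of a trend on GC content and length and the omission of overlapping genes were chosen after seeing the data. Figures used matplotlib 3.10.9 (Python 3.11.15). The results of some single genes covered by the lists are not given.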

Additional observations from a re-analysis of the deposited data

How the results depend on the processing

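Of the 24 genes called, 23 kept call and direction in all 10 alternative fits, and 23 passed an adjusted P under 0.01. CYP51A1 lost its call with DESeq2 (adjusted P = 0.0896) and without 3 of the libraries in turn. Of the 8 genes not called, 5 stayed so with the same sign. SREBF1 passed with upper quartile scaling (adjusted P = 0.0361) and FASN, at 0.26, without the first 24 h library (0.0386). NSDHL, between -0.029 and 0.054 with a library left out, turned to -0.034 with library size alone, -0.029 without the first 24 h library and -0.013 without the first 6 h library, and FASN to -0.20 without the second 24 h library and -0.068 without the first 6 h library. The cause was not tested.

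Without the 8 genes that overlap another gene, the number higher was 5 in all, 1 sterol enzyme and 2 lipogenic genes, and past the cutoffs of the methods 2 in all and 1 lipogenic gene, by construction from fewer genes. With library size alone, 2 genes passed the cutoffs upward, 1 lipogenic gene passed them downward, and 0 efflux genes passed. With DESeq2, 0 efflux genes passed, since MYLIP lay just over the cutoff. With each library left out in turn, the number of genes past the upward cutoffs ranged from 2 to 4, with 2 without the second 24 h library, and of efflux genes from 0 to 1, with 0 without the second 24 h or the second 6 h library. Upper quartile scaling raised the regulators called higher to 2.

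The median log2 fold change of the sterol enzymes ranged from -0.46 to -0.35 and that of the lipogenic genes from 0.33 to 0.47 with a library left out. The trend on GC content and length could be removed for 6 of the 7 lipogenic genes, since ACACA has no length. Their median was 0.24 before and 0.25 after, so the step from 0.42 comes from the loss of ACACA. For the regulators it was -0.48 with library size alone, -0.40 with upper quartile scaling and -0.46 without the trend. These scalings moved the median of all genes tested to -0.040 and 0.033.

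The replicate numbers of the titles pair the libraries by number only. Across the genes tested, the log2 difference between the first and second 24 h libraries had a correlation of 0.0844 with that between the 6 h libraries. A replicate block gave 9 genes higher and 16 lower, and 2 regulators were called higher, SREBF1 being the additional one (adjusted P = 0.0410). With 2 libraries per time point, differences as small as that of SREBF1 or DHCR7 were not detectable with certainty.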
